A study of Mus musculus with 13 samples.

Results

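The genes described are 9 that mark monocytes and the macrophages that form from them in injured tissue. They were chosen by name, as 3 monocyte genes (Ly6c2, Ccr2 and Cx3cr1), 3 genes for the chains of complement C1q (C1qa, C1qb and C1qc) and 3 genes of macrophages in a repair state (Spp1, Gpnmb and Trem2). All 9 were among the 32544 gene symbols counted in whole lung, and all were among the 12496 with enough counts to be tested.

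The lungs came from wild-type male C57BL/6J mice, bought at 7 weeks of age, that had breathed 21% oxygen (Normoxia, 7 libraries) or 80% oxygen (Hyperoxia, 6 libraries) over 5 days. The lungs were perfused with cold buffer and frozen, and each library holds RNA of all the cells of the tissue. Quant-seq, which reads the 3′ ends of polyadenylated transcripts, gave a count per gene, and total counts ran from 1607111 to 3387736 in normoxia and from 2029006 to 4540288 in hyperoxia. The labels name separate samples without saying that each is 1 animal, and the p-values measure the spread between these samples. Levels are CPM, the count as a share of the library's total after TMM scaling, and changes are log2 fold changes of hyperoxia over normoxia with standard error (SE). Their p-values are from edgeR's quasi-likelihood test, adjusted over all genes tested by the Benjamini-Hochberg method, with a threshold of 0.05.

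Classical monocytes leave the bone marrow through CCR2, the receptor of the chemokine CCL2, and carry Ly6C on their surface. A patrolling, non-classical kind is high in CX3CR1, the receptor of fractalkine. In the lung, monocytes that enter the tissue can become interstitial or alveolar macrophages. C1q, the recognition subunit of the first complement component, is made largely by macrophages and is used as a mark of the interstitial kind. After injury, newly arrived macrophages can take up a lipid-handling and matrix-remodelling state marked by osteopontin (Spp1), GPNMB and TREM2.

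Repair-state genes were higher in hyperoxia and monocyte genes lower, as far as they passed the test. Of the 9 members tested, 3 were higher in hyperoxia, while 11.8% of all genes tested were higher, and 2 were lower, while 10.8% of all genes were. The 3 higher genes were Spp1, Gpnmb and Trem2, each about 3.1-fold, and the 2 lower genes were Ly6c2 and Ccr2. Cx3cr1 and the 3 C1q genes did not pass the test. The median log2 fold change was -0.85 for the monocyte genes, 0.57 for the C1q genes and 1.62 for the 3 repair-state genes tested, beside -0.03 for all genes tested. In whole tissue, fewer cells of a type and less RNA per cell cannot be told apart.

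**Figure D1:**
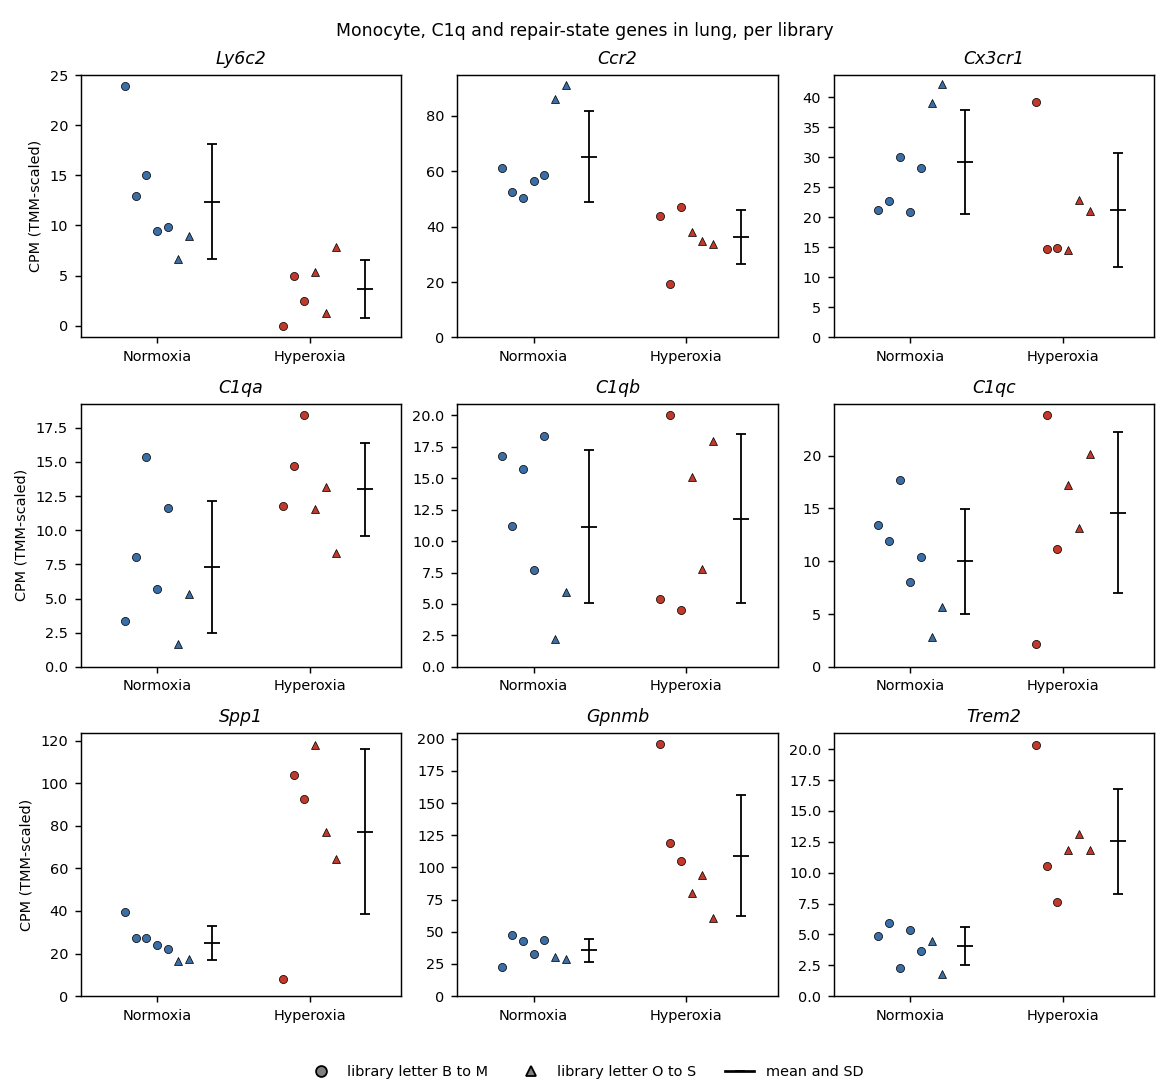
Level of each of the 9 genes in CPM (vertical axis, linear, own scale in each panel) in the 7 normoxic (blue) and 6 hyperoxic (red) libraries, with the mean and SD beside each group and with the marker shape giving the letter set of the library name. Gpnmb and Trem2 lie higher and Ccr2 lower in all 6 hyperoxic libraries than in any normoxic one, and 1 hyperoxic library falls below all normoxic ones for Spp1.

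A past-threshold log2 fold change over 1.5 was found for 3 members (Spp1, Gpnmb and Trem2), against 1.55% of all genes tested, and one under -1.5 for 1 member (Ly6c2), against 2.35%. Every hyperoxic library was above every normoxic one for Gpnmb and Trem2, a pattern that 5.6% of the genes tested showed. Every hyperoxic library was below every normoxic one for Ccr2, as for 5.23% of the genes tested.

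1 hyperoxic library, replicate 1, stood apart from the other libraries. Its mean correlation with the rest was 0.779, against 0.886 to 0.919 for the other 12 libraries. It had the highest Gpnmb and Trem2 levels and the lowest Ly6c2, Spp1 and C1qc levels of all 13 libraries, and the highest Cx3cr1 level of the 6 hyperoxic ones. Without it, 3 members were higher and 3 lower, Cx3cr1 being added to the lower ones. In hyperoxia replicate 1 the macrophage or leukocyte genes Tyrobp, Cd53 and Adgre1 were at 4.29, 2.14 and 0 CPM. The other hyperoxic libraries had at least 29.2, 14.1 and 4.38 CPM of them. Csf1r (357 CPM) and Mrc1 (130 CPM) were instead above all normoxic libraries in replicate 1. The source of its high Gpnmb and Trem2 levels was not tested. The libraries also carry names with letters from B to M (5 normoxic and 3 hyperoxic) or from O to S (2 normoxic and 3 hyperoxic). The labels do not say what the letters stand for, and changes within each set are given further down. All 11 lung marker genes examined, among them Sftpc of alveolar type 2 cells and Pecam1 of endothelium, had counts in every library. Their summed level in hyperoxia replicate 1 was 5511 CPM, against at least 10032 CPM in the other hyperoxic libraries. Scgb1a1 of club cells was at 162 CPM in replicate 1 and at 2776 CPM or more in the other hyperoxic libraries.

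Ly6c2 encodes the Ly6C antigen of classical monocytes and has a close neighbour, Ly6c1, which is known in endothelial cells and some lymphocytes. In GRCm38, Ly6c2 lies at chr15:75108158-75111970 and Ly6c1 at chr15:75044018-75048830, both on the minus strand. Their coding sequences of 393 bases have the same letter at 384 positions, or 97.7%, and differ at 9. The first 90 coding bases hold 6 of the 9 differences, in capitals here, and are shown as the coding stretch that holds most of the letters by which the pair can be told apart:
Ly6c1: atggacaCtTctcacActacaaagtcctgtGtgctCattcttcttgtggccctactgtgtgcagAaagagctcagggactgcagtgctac
Ly6c2: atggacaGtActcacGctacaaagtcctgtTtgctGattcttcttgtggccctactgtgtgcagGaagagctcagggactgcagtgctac

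Near the 3′ ends, where Quant-seq reads lie, the likeness remained. Of all 31-base words in the last 500 bases of the Ly6c2 transcripts, 56.6% also occur in another gene, mostly Ly6c1. The Ly6c2 count is therefore uncertain to the extent that the quantification had to divide reads between both genes. For Ccr2, C1qa, C1qb, C1qc and Trem2 this share was 0%, for Gpnmb 0.106% and for Cx3cr1 6.29%.

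Ly6c2 ran from 6.69 to 23.9 CPM in normoxia, with a median of 9.80, and from 0 to 7.87 CPM in hyperoxia, with a median of 3.67. The groups overlapped, with 5 of 6 hyperoxic libraries below all normoxic ones. Ly6c2 fell by 1.67 on the log2 scale, or 3.18-fold (SE 0.49, adjusted p = 0.0214, edgeR). Counts were few, at most 64 in any library, and the 0 in hyperoxia replicate 1 allows up to 1.61 CPM at that depth. Without that library the log2 fold change was -1.45 (adjusted p = 0.0113), and without normoxia replicate 1, the library with the highest level, it was -1.42 (adjusted p = 0.0506).

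The neighbour Ly6c1 went the other way. It lay between 128 and 238 CPM in normoxia, and between 24.7 and 1029 CPM in hyperoxia, where the 5 libraries other than replicate 1 had at least 439 CPM. Its log2 fold change was 1.81 (SE 0.49, adjusted p = 0.0142), which missed the threshold with limma-voom (1.24, adjusted p = 0.204) and with limma on the deposited log values (1.14, adjusted p = 0.245). For Ly6c1 it was 1.29 within the B to M libraries (adjusted p = 0.262) and 2.55 within O to S (adjusted p = 0.00194). Ly6c2 made up 4.98% to 9.12% of the summed pair in normoxia and 0% to 0.908% in hyperoxia, so the 2 groups did not overlap in this share. With the counts of both added as if they were 1 gene, the log2 fold change was 1.72 (SE 0.49, adjusted p = 0.0187). How far divided reads enter the Ly6c2 values was not tested.

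**Figure D2:**
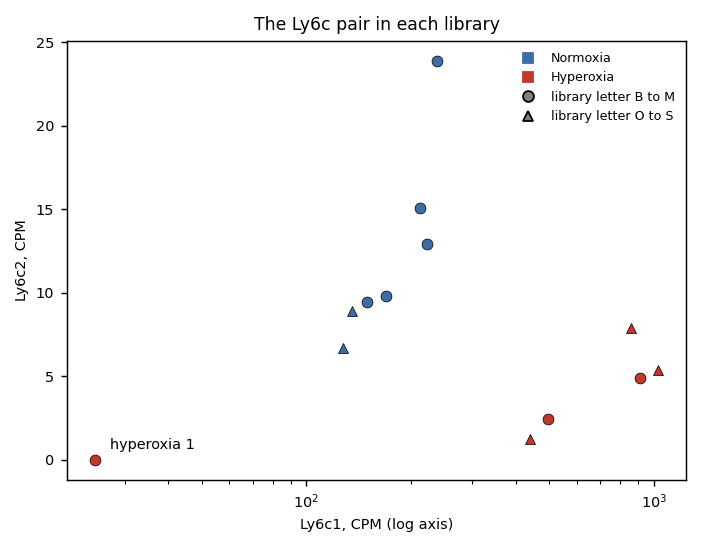
Ly6c2 (vertical axis, CPM, linear) against Ly6c1 (horizontal axis, CPM, log scale) in the 13 libraries, blue for normoxia and red for hyperoxia. The normoxic libraries lie at 128 to 238 CPM of Ly6c1 with 6.69 CPM or more of Ly6c2, 5 hyperoxic libraries lie at 439 CPM of Ly6c1 or more with at most 7.87 CPM of Ly6c2, and hyperoxia replicate 1 is low in both.

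Ccr2, the receptor by which classical monocytes are drawn to CCL2, fell by 0.85 on the log2 scale, or 1.81-fold (SE 0.21, adjusted p = 0.00806). The normoxic libraries lay between 50.4 and 91.3 CPM with a median of 58.8, and the hyperoxic ones between 19.3 and 47.3 CPM with a median of 36.5. The groups did not overlap. Hyperoxia replicate 1, at 44.0 CPM, was within the range of the other hyperoxic libraries, and without it the log2 fold change was -0.90.

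Cx3cr1, the fractalkine receptor of non-classical monocytes and of some interstitial macrophages, had 20.9 to 42.2 CPM in normoxia and 14.5 to 39.1 CPM in hyperoxia, with medians of 28.2 and 18.0. The groups overlapped, and the log2 fold change was -0.48 (SE 0.26, adjusted p = 0.209). Hyperoxia replicate 1 alone held the 39.1 CPM, while the other 5 hyperoxic libraries had 22.8 CPM or less. Without it the log2 fold change was -0.72 (SE 0.22, adjusted p = 0.0213), past the threshold. The annotated Cx3cr1 region overlaps 9 other genes, on both strands.

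The molecules that act on these receptors were mostly too low to be tested. Ccl2, the main CCR2 ligand, had 1.10 ± 0.95 CPM in normoxia (SD, n = 7) and 7.62 ± 7.28 CPM in hyperoxia (SD, n = 6), where 5 of 6 libraries lay above all normoxic ones. Ccl7, a further CCR2 ligand, had 0.594 ± 0.486 and 3.80 ± 2.79 CPM, and Ccl12 had 0.829 ± 0.828 and 2.07 ± 1.57 CPM. In counts, Ccl2 had 0 to 7 per normoxic and 4 to 79 per hyperoxic library, and Ccl7 had 0 to 4 and 0 to 29. Cx3cl1, the fractalkine that binds CX3CR1, fell by 1.35 on the log2 scale (adjusted p = 0.00454), from 13.6 ± 5.55 to 5.27 ± 1.32 CPM. Within the O to S libraries the log2 fold change of Cx3cl1 was -0.55 (adjusted p = 0.350). Csf1, a growth factor of monocytes and macrophages, had a log2 fold change of 0.22 (adjusted p = 0.513). Its receptor Csf1r had one of -0.31 (adjusted p = 0.459), with 5 hyperoxic libraries below all normoxic ones and hyperoxia replicate 1 above them at 357 CPM. Without that library, Csf1r was lower by the test (-0.75, adjusted p = 2.94e-04). Of 10 tested genes for monocyte attractants, growth factors and their receptors, Cx3cl1 was lower, none was higher and 9 were not called, at a median of 0.08.

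Other monocyte markers did not all move with Ly6c2. Of 9 tested genes of classical monocytes, 4 were lower, 2 were higher and 3 were not called, with a median log2 fold change of -0.54, or -0.27 without hyperoxia replicate 1. Ms4a4c, a membrane protein of the MS4A family, fell by 2.50 on the log2 scale (adjusted p = 3.98e-05). Vcan, the matrix proteoglycan versican that fibroblasts also make, rose by 3.35 (adjusted p = 8.55e-08), and F13a1, a coagulation factor chain found in monocytes and macrophages, rose by 0.96 (adjusted p = 8.00e-04). Of 10 tested genes of non-classical monocytes, 5 were lower, none was higher and 5 were not called, with a median of -1.40. Itgal, an integrin chain of most leukocytes, fell by 2.22 (adjusted p = 2.01e-04) and Spn, the surface sialoglycoprotein CD43, fell by 1.81 (adjusted p = 6.98e-04). The summed level of this list was 401 to 500.0 CPM in normoxia and 233 to 275 CPM in hyperoxia.

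Genes of a general leukocyte list fell as well. Of 6 leukocyte genes, 5 were lower and none higher, and their summed level was 437 to 573 CPM in normoxia and 188 to 327 CPM in hyperoxia, with all 6 counted in every library. Ptprc, which encodes the leukocyte antigen CD45, fell by 0.98 on the log2 scale (adjusted p = 0.00691). Its groups overlapped, with hyperoxia replicate 1 at 167 CPM. Within the B to M libraries the log2 fold change of Ptprc was -0.66 (adjusted p = 0.200). Lcp1, an actin-bundling protein of blood cells, fell by 0.99 (adjusted p = 0.00308), and Cd37, a tetraspanin found mainly on B cells, fell by 2.11 (adjusted p = 1.42e-04). The part of the lower leukocyte genes in the Ly6c2 and Ccr2 values was not tested.

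The C1q genes did not pass the test, and their libraries overlapped widely. The 3 genes lie next to each other on the minus strand of chromosome 4, C1qb at chr4:136880129-136886187, C1qc at chr4:136889804-136893065 and C1qa at chr4:136895917-136898803 (GRCm38). Each encodes 1 of the 3 chains that together build C1q.

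C1qa had 1.67 to 15.4 CPM in normoxia (median 5.72) and 8.31 to 18.4 CPM in hyperoxia (median 12.5), with a log2 fold change of 0.85 (SE 0.39, adjusted p = 0.133). C1qb had 2.23 to 18.4 CPM (median 11.2) and 4.52 to 20.03 CPM (median 11.4), with a log2 fold change of 0.13 (SE 0.45, adjusted p = 0.873). C1qc had 2.79 to 17.7 CPM (median 10.4) and 2.14 to 23.8 CPM (median 15.2), with a log2 fold change of 0.57 (SE 0.43, adjusted p = 0.372). The C1qa change passed the threshold when normoxia replicate 3, its highest normoxic library, was left out (1.19, adjusted p = 0.0355).

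Within a condition, C1qb and C1qc went up and down together. Over the 13 libraries, the deviations of C1qb from its group means correlated with those of C1qc at r = 0.82, and at 0.92 over the 12 libraries without hyperoxia replicate 1. C1qa followed them less closely, at 0.43 with C1qb and 0.42 with C1qc. These correlations describe deviations of log2 CPM that share library and depth.

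The C1q changes were also computed within each letter set. In the libraries named O to S, normoxic C1qc was 2.79 and 5.65 CPM, and the 3 hyperoxic values were 13.1 to 20.1 CPM, without overlap. There, the log2 fold change was 1.63 for C1qa (adjusted p = 0.0481), 1.74 for C1qb (adjusted p = 0.0410) and 1.99 for C1qc (adjusted p = 0.00977). In the libraries named B to M it was 0.82 for C1qa (adjusted p = 0.276), -0.43 for C1qb (adjusted p = 0.623) and 0.05 for C1qc (adjusted p = 0.962). A test of the difference between the sets gave adjusted p = 0.538 for both C1qb (difference 2.20, unadjusted p = 0.0211) and C1qc (difference 1.96, unadjusted p = 0.0348), and 0 of 12496 genes passed this edgeR test, 1158 having an unadjusted p under 0.05. With the letter set as a term in the model, C1qa passed the threshold (1.09, adjusted p = 0.0483).

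The partners of C1q in the classical complement pathway were tested as well. Of 12 genes tested, 2 were higher, none was lower and 10 were not called, with a median log2 fold change of -0.04. Over all genes tested, 11.8% were higher and 10.8% lower. C1ra and C1s1, which encode the proteases that C1q carries, had log2 fold changes of 0.15 (adjusted p = 0.512) and -0.68 (adjusted p = 0.259). Serping1, the inhibitor of these proteases, had one of -0.31 (adjusted p = 0.608). The 2 higher genes encode surface proteins that have been linked to C1q binding or uptake. Cd93, also a known endothelial protein, rose by 2.20 (adjusted p = 1.66e-06), with a median of 733 CPM in normoxia and 2885 CPM in hyperoxia. Lrp1, a scavenger receptor, rose by 0.49 (adjusted p = 0.0356), a call lost in 5 of the 13 fits that each leave out 1 library (adjusted p up to 0.0677, without hyperoxia replicate 6).

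All 3 repair-state genes were higher in hyperoxia. Spp1 encodes osteopontin, a secreted adhesive glycoprotein of matrix and inflamed tissue. It ran from 16.4 to 39.6 CPM in normoxia (median 24.2) and from 8.04 to 118 CPM in hyperoxia (median 84.7), and rose by 1.64 on the log2 scale, or 3.11-fold (SE 0.39, adjusted p = 0.00639). The 5 hyperoxic libraries other than replicate 1 held 64.5 CPM or more, all above normoxia, whereas replicate 1 lay below every normoxic library. Without it the log2 fold change was 1.89 (SE 0.21, adjusted p = 5.40e-06). With all 13 libraries the call was lost in limma-voom (1.42, adjusted p = 0.0565) and in limma on the deposited log values (1.23, adjusted p = 0.0838). Spp1 shares 11.3% of the 31-base words near its 3′ end with Gm42793, a gene model that overlaps it on the same strand.

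Gpnmb encodes a transmembrane glycoprotein of late endosomes and lysosomes, found in macrophages laden with lipid. Normoxic libraries held 22.4 to 47.2 CPM with a median of 33.0, and hyperoxic libraries held 61.0 to 196 CPM with a median of 99.5. All 6 hyperoxic libraries were above all normoxic ones. Gpnmb rose by 1.62 on the log2 scale, or 3.07-fold (SE 0.25, adjusted p = 2.61e-04), and by 1.39 without hyperoxia replicate 1, which had the 196 CPM.

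Trem2 encodes a macrophage receptor for lipids and apoptotic cells. It had 1.78 to 5.94 CPM in normoxia with a median of 4.46 and 7.64 to 20.4 CPM in hyperoxia with a median of 11.8. Again no hyperoxic library reached down to a normoxic one. Trem2 rose by 1.61, or 3.06-fold (SE 0.31, adjusted p = 0.00139), and by 1.45 without hyperoxia replicate 1, which had the 20.4 CPM.

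**Figure D3:**
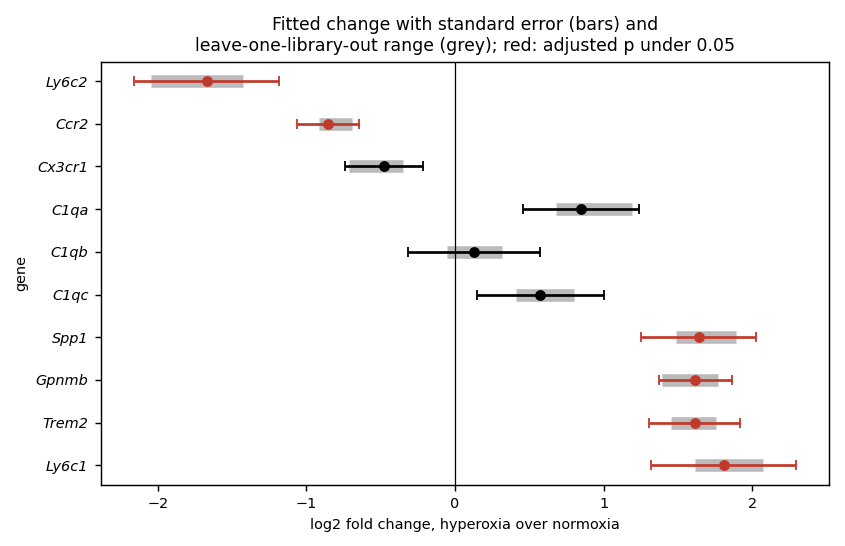
Log2 fold change of hyperoxia over normoxia (horizontal axis) for the 9 members tested and for Ly6c1, with standard errors as bars and the range over the fits that each leave out 1 library as grey bands, red where the adjusted p was under 0.05. Ly6c2 and Ccr2 stay on the negative side and Spp1, Gpnmb and Trem2 on the positive side in each such fit, and the band of C1qb spans 0.

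The promoters of the 3 genes that rose are shown since they rose by like amounts. Each line gives 150 bases before and 20 bases after a RefSeq transcript start (GRCm38.p6, plus strand), at chr5:104434961-104435130 for Spp1, chr6:49036368-49036537 for Gpnmb and chr17:48346251-48346420 for Trem2. Capitals mark the letters of the PU.1 motif GAGGAAGT, bound by a factor that macrophages need, or of the AP-1 motif TGANTCA, bound by FOS and JUN proteins:
Spp1: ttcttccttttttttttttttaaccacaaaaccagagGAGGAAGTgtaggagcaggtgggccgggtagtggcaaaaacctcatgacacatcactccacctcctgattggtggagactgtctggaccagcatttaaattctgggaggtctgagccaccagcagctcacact
Gpnmb: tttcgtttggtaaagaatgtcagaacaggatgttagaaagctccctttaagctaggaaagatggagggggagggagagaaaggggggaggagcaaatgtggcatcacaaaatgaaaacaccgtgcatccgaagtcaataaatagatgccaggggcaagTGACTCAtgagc
Trem2: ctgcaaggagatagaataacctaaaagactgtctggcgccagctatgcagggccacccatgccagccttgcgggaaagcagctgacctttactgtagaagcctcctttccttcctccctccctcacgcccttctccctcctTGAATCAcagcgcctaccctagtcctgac

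Promoters of 300 bases (250 before and 50 after a start) were at hand for 8 of the 9 members and were searched on both strands. Ly6c2 and Spp1 had 2 promoters each, and 10 were searched in all. The PU.1 letters occurred in both of Ly6c2, in that of C1qc and in 1 of 2 of Spp1, and in 3.20% of all 32851 promoters of this length. The Ly6c2 promoters overlap and hold the same PU.1 sites. A promoter of the neighbour Ly6c1, searched besides these 10, held the PU.1 letters too. The AP-1 letters occurred in those of Gpnmb and Trem2, and in 7.81% of all. The E-box CACGTG, found in 7.15% of all, was in none of the members. The matches are only a description of these windows.

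The other members were computed within each letter set as well. In the libraries named O to S, the log2 fold change was 2.33 for Spp1 (adjusted p = 0.00155), 1.38 for Gpnmb (adjusted p = 0.00441) and 1.94 for Trem2 (adjusted p = 0.0147). In those named B to M it was 1.31 for Spp1 (adjusted p = 0.163), 1.95 for Gpnmb (adjusted p = 0.00524) and 1.57 for Trem2 (adjusted p = 0.0544). Gpnmb passed in both sets. Of the monocyte genes, Ccr2 was -1.33 in O to S (adjusted p = 0.00118) and -0.54 in B to M (adjusted p = 0.277). Cx3cr1 was -1.07 (adjusted p = 0.0137) and -0.05 (adjusted p = 0.946), and Ly6c2 was -0.66 (adjusted p = 0.440) and -2.41 (adjusted p = 0.0484). The differences between the sets did not pass the test for any member (smallest adjusted p = 0.538). Mean Ccr2 in O to S and B to M was 88.7 and 55.9 CPM in normoxia, and 35.6 and 36.8 CPM in hyperoxia. Mean Cx3cr1 was 40.6 and 24.6 CPM in normoxia, and 19.45 and 22.9 CPM in hyperoxia.

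Trem2 acts with partners in lipid-handling macrophages, and calls among these went in both directions. Of 19 tested genes of TREM2 signalling and lipid-associated macrophages, 4 were higher, 4 were lower and 11 were not called, with a median log2 fold change of 0.07. The summed level of the list was 3731 to 4422 CPM in normoxia and 4566 to 5849 CPM in hyperoxia, without overlap. Tyrobp, the adaptor through which TREM2 signals, had 40.7 ± 14.8 CPM in normoxia and 33.1 ± 15.9 CPM in hyperoxia and a log2 fold change of -0.28 (adjusted p = 0.635). Hyperoxia replicate 1, the library with the most Trem2, had 4.29 CPM of Tyrobp. Lgals3, the lectin galectin-3 that epithelium also makes, rose by 1.92 (adjusted p = 1.21e-06), and Plin2, a coat protein of lipid droplets in many cell types, rose by 2.14 (adjusted p = 8.19e-05). Fabp5, a fatty acid carrier, fell by 0.97 (adjusted p = 1.56e-04), and Cd36, a fatty acid and scavenger receptor that lung endothelium also carries, fell by 0.62 (adjusted p = 0.0234). The Cd36 call was lost in 5 of 13 fits with 1 library left out (adjusted p up to 0.0667, without hyperoxia replicate 2).

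Among 12 tested genes for osteopontin receptors and GPNMB partners, 2 were higher, 1 was lower and 9 were not called, at a median of 0.08. Itgb1, the beta-1 integrin chain of most cells, rose by 1.09 (adjusted p = 2.94e-04), and Itga5, its partner in the fibronectin receptor, rose by 1.62 (adjusted p = 0.0347). The Itga5 call was lost in 8 of 13 fits with 1 library left out (adjusted p up to 0.0950, without hyperoxia replicate 4). Itga4, an integrin chain of leukocytes that binds osteopontin, fell by 0.95 (adjusted p = 2.38e-04). Cd44, a further osteopontin receptor, had a log2 fold change of -0.11 (adjusted p = 0.698), Itgav one of 0.20 (adjusted p = 0.542) and Itgb3 one of 0.22 (adjusted p = 0.676).

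Of 9 tested genes of arginine metabolism and alternative activation, states that repair macrophages can share, 4 were higher, 1 was lower and 4 were not called, with a median of -0.03. Odc1, the enzyme that turns ornithine into putrescine, rose by 2.21 (adjusted p = 2.99e-07), and Il4ra, the receptor chain for interleukins 4 and 13, rose by 1.22 (adjusted p = 0.00151). Cd209a, a lectin of monocyte-derived dendritic cells, fell by 1.46 (adjusted p = 0.0149). Nos2, which makes nitric oxide from arginine, had 0.557 to 4.25 CPM in normoxia and was at 0 counts in 5 of 6 hyperoxic libraries and at 2 counts in the other, which was too few counts for the test.

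Marker lists of macrophages as a whole did not rise. Of 15 tested genes shared by macrophages, 3 were lower, none was higher and 12 were not called, with a median of -0.26. Adgre1, which encodes the F4/80 antigen, had a log2 fold change of -0.11 (adjusted p = 0.882). Lyz2, the lysozyme of myeloid cells that alveolar type 2 cells also make, fell by 2.27 (adjusted p = 2.51e-04), and Cd53, a tetraspanin of leukocytes, fell by 1.02 (adjusted p = 0.0266, or 0.0520 without normoxia replicate 7). The summed level of the list was 2667 to 4551 CPM in normoxia and 843 to 1714 CPM in hyperoxia, of which Lyz2 took 2947 ± 718 and 609 ± 329 CPM.

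Of 15 tested interstitial macrophage genes, 5 were higher, 2 were lower and 8 were not called, with a median of 0.43, or 0.23 without hyperoxia replicate 1. Lyve1, a hyaluronan receptor that lymphatic endothelium also carries, rose by 3.14 (adjusted p = 2.16e-07), Cd163, the haemoglobin scavenger receptor, rose by 1.82 (adjusted p = 2.41e-04), and Mrc1, the mannose receptor, rose by 0.72 (adjusted p = 0.00415). Within the O to S libraries the Mrc1 value was 0.32 (adjusted p = 0.140). Cbr2, a carbonyl reductase also known in airway epithelium, fell by 1.43 (adjusted p = 0.0110). Its groups overlapped, with normoxia replicate 6 at 109 CPM, and within the O to S libraries its log2 fold change was -0.24 (adjusted p = 0.721). The transcription factor gene Maf fell by 0.37 (adjusted p = 0.0453), a call lost in 11 of 13 fits with 1 library left out (adjusted p up to 0.138, without hyperoxia replicate 4). The summed level was 1828 to 3128 CPM in normoxia and 5897 to 10037 CPM in hyperoxia, of which Lyve1 took 474 to 909 and 3736 to 8089 CPM.

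Of 16 tested alveolar macrophage genes, 7 were lower, none was higher and 9 were not called, with a median of -0.43, or -0.28 without hyperoxia replicate 1. Fabp1, a fatty acid carrier, was lower (adjusted p = 2.44e-05), with 13 to 42 counts in the normoxic libraries, 3 counts in hyperoxia replicate 6 and 0 in the other 5 hyperoxic libraries. Ear1, an eosinophil-associated ribonuclease of alveolar macrophages, fell by 3.03 (adjusted p = 0.00221), with 0 counts in 3 of 6 hyperoxic libraries. Without hyperoxia replicate 4, its highest hyperoxic library, the log2 fold change of Ear1 was -4.16. Within the O to S libraries that of Ear1 was -2.31 (adjusted p = 0.0896). Marco, a scavenger receptor, had a log2 fold change of 0.98 (adjusted p = 0.183), and one of 2.19 within the O to S libraries (adjusted p = 0.0130). The summed level was 800.2 to 989 CPM in normoxia and 360 to 1219 CPM in hyperoxia, the 360 CPM being hyperoxia replicate 1. The other hyperoxic libraries had 853 CPM or more. Whether any of these cell types has a part in the higher Spp1, Gpnmb and Trem2 levels was not tested.

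**Figure D4:**
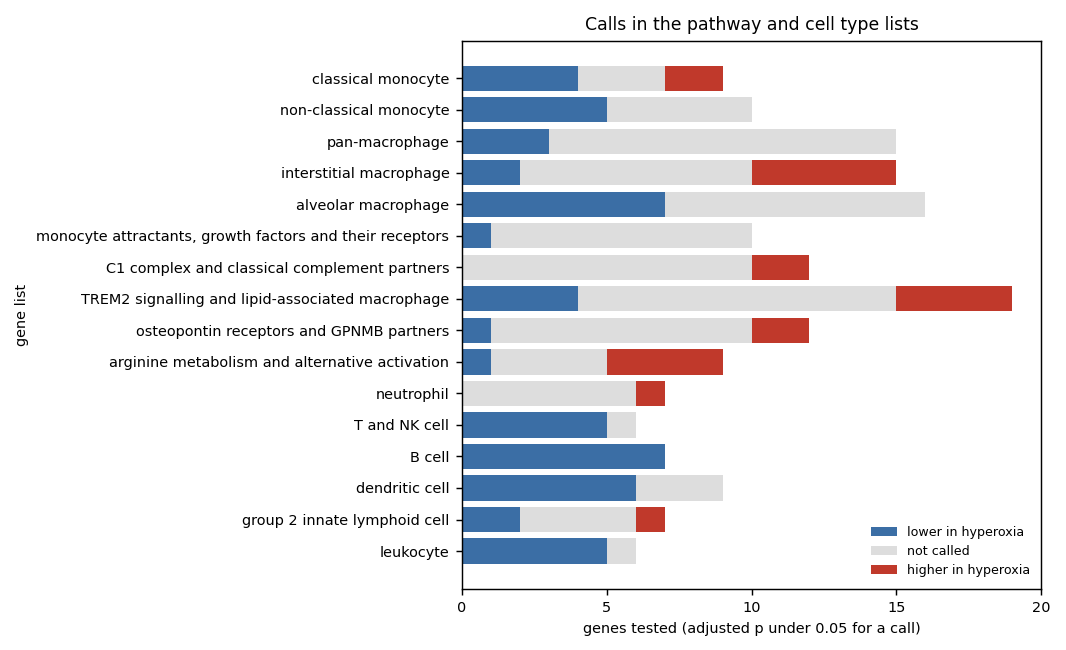
Number of tested genes (horizontal axis) that were lower (blue), not called (grey) or higher (red) in hyperoxia in each of 16 lists of pathways and cell types, at an adjusted p under 0.05. The lists of non-classical monocytes, macrophages in general, alveolar macrophages, leukocytes, B cells, T and NK cells and dendritic cells hold lower genes and no higher ones, and the interstitial macrophage list holds 5 higher and 2 lower genes.

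The genes whose libraries followed each group most closely were found by correlating deviations from the group means over the 13 libraries, among the 10112 genes whose log2 CPM averaged 3 or more. For the monocyte genes these were Sdccag8 (r = 0.91), Zgrf1 (0.88), Ccpg1 (0.87), 2900026A02Rik (0.87) and Xpc (0.87). For the C1q genes they were U2af2 (r = 0.98), Gstm1, Atp6v0c, Nbl1 and Tspan9 (0.95 each), and without hyperoxia replicate 1 U2af2 remained at 0.99. For the repair-state genes they were Blvrb (r = 0.82), Ptgr1 (0.81), Vmn1r-ps128 (0.76), Rhot2 (0.76) and Btf3l4 (0.75). None of these genes is in the marker lists used, and the r values are the highest of many and share library and depth.

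The 3 repair-state genes did not vary together within a condition. Over the 12 libraries without hyperoxia replicate 1, r was 0.10 for Spp1 with Gpnmb, 0.22 for Spp1 with Trem2 and -0.09 for Gpnmb with Trem2. With it, r was -0.58, -0.38 and 0.25. Among the monocyte genes, Ccr2 and Cx3cr1 had r = 0.53 over all 13 libraries, while Ly6c2 had -0.46 with Ccr2 and -0.72 with Cx3cr1. Without hyperoxia replicate 1 these were 0.48, -0.40 and -0.44. Differences between the letter sets were not taken out of these deviations.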

How the data were processed

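Lung RNA of 7 normoxic and 6 hyperoxic samples was measured by Quant-seq. The authors quantified the reads per gene symbol with kallisto in BioJupies and deposited whole-number counts per library, not normalized. The submitters' processing notes name build mm10 and limma 3.54.2, and the annotation is not given in the sources used here. The authors also deposited log10 of CPM plus 1, which recomputation from the counts matched within 4.44e-16. All columns were mapped to samples by the library names in the labels (0 unmapped). Groups and replicate numbers are from the sample titles.

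Counts were tested in R 4.3.3 with edgeR 4.0.16 (glmQLFit and glmQLFTest, TMM, filterByExpr) over 12496 of 32544 genes, with condition as the single term and Benjamini-Hochberg adjustment. The log2 CPM behind the correlations had a prior count of 2. SE is the absolute log2 fold change over the square root of F. Of the genes, 12826 had no count in any library. Libraries of the same condition differed beyond sampling noise in all 36 pairs (chi-square per gene at least 3.79). A level of 3 counts was 0.656 to 1.84 CPM, which covers counting error only. Reads without molecular identifiers are not independent molecules. The fit was tested on simulated counts.

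Alternatives were DESeq2 1.42.0, limma-voom (limma 3.58.1), limma on the deposited log values, scaling by total count, all genes unfiltered, a stricter filter of 10 counts per library, a replicate block, a term for the letter set, each letter set by itself, and each library left out. The interaction with the letter set, the summed Ly6c pair and the list sums without hyperoxia replicate 1 were chosen after seeing the data. The members and gene lists were chosen with earlier results of these data known. Named genes are the members, Ly6c1, up to 2 higher and 2 lower genes with the smallest adjusted p in each list, 19 partner genes named whatever their values, and the 5 genes most like each group. A further gene of the set and some genes of the lists are not reported here, though list counts and sums include them. Coordinates are from GENCODE M21 (GRCm38), and promoters are from RefSeq (GRCm38.p6).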

Additional observations from a re-analysis of the deposited data

Results flagged for a closer look

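In 24 groups of libraries (each member's CPM, Ly6c1, the total count and the mean correlation, by condition), the highest or lowest library was compared with the rest by Dixon's ratio, which marks about 1 group in 20 by chance. A single library stood out in 3 of them. Cx3cr1 in hyperoxia replicate 1 was 39.1 CPM (ratio 0.663, critical value 0.625), whereas the next library had 22.8 CPM. The mean correlation of hyperoxia replicate 1 with the other libraries was 0.779 (ratio 0.763). The total count of normoxia replicate 5 was 1607111 (ratio 0.612, critical value 0.568), the lowest of the 13 libraries, and none of its member levels stood out.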

How the results depend on the processing

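For the members, 202 values were recomputed under other settings, and 181 kept their direction and their side of the threshold, 10 lost the call, 7 gained one and 4, all of C1qb, changed sign. For the context genes, 1165 of 1268 kept both, 89 lost the call, 3 gained one and 11 changed sign. Of the members, Gpnmb kept its call in every setting. The number of members higher (3 with all libraries) was 1 within B to M and 6 within O to S. The number lower (2) was 1 within B to M, 1 with at least 10 counts in every library, 1 with a log2 fold change past 1.5, and 1 to 3 when 1 library was left out, with 1 without normoxia replicate 1. The monocyte median was -0.54 within B to M, and the C1q median was 1.74 within O to S. The log2 fold changes that changed sign were, within B to M, C1qb (-0.43), Csf1 (-0.060), Csf1r (0.087) and Itgav (-0.0079). Within O to S they were Tyrobp (0.60), Serping1 (0.69) and Adgre1 (0.38). With limma on the deposited log values it was Itgb3 (-0.010). With 1 library left out, C1qb ran from -0.056 to 0.31, Cd44 from -0.21 to 0.040, Itgb3 from -0.19 to 0.37 and Adgre1 from -0.24 to 0.12. The cause was not tested.

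With the replicate number as a block, 0 members were lower (Ly6c2 -1.86, adjusted p = 0.110, and Ccr2 -0.76, adjusted p = 0.0615) and Spp1 lost its call (1.45, adjusted p = 0.106), whereas Gpnmb and Trem2 kept theirs. Of the other genes named, Ly6c1 (1.47, adjusted p = 0.212) and Cbr2 (-1.39, adjusted p = 0.0886) were among those that lost the call with the block. The replicate numbers do not pair the samples: the deviations of same-numbered libraries correlated at -0.33, 0.27, -0.24, -0.31, -0.068 and -0.14. Depth limits the CCR2 ligands and Ly6c2, whose counts were few in most libraries, and no depth separates reads of Ly6c1 and Ly6c2 over sequence that both share.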

Other observations

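Lymphocyte and dendritic cell genes were also lower in hyperoxia. All 7 tested B cell genes were lower, with a median log2 fold change of -2.01, and their summed level was 257 to 300.5 CPM in normoxia and 52.1 to 85.6 CPM in hyperoxia. Cd79b, a chain of the B cell receptor complex, fell by 2.28 (adjusted p = 1.33e-04). Of 6 tested T and NK cell genes, 5 were lower and none was higher, with Cd2, an adhesion molecule of T and NK cells, at -1.78 (adjusted p = 0.00119) and Cd3d, a chain of the T cell receptor complex, at -1.14 (adjusted p = 0.00544). Of 9 dendritic cell genes, 6 were lower and none was higher, with Clec9a, a receptor of type 1 conventional dendritic cells, at -1.29 (adjusted p = 6.36e-04) and Kmo, an enzyme of tryptophan breakdown, at -1.15 (adjusted p = 0.00430). Within the B to M libraries Cd3d (-0.76, adjusted p = 0.248) and Kmo (-0.80, adjusted p = 0.212) lost the call. Cd2 lost it within O to S (-1.10, adjusted p = 0.0896).

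Of 7 tested neutrophil genes, Mmp8, a collagenase of neutrophil granules, was higher (1.95, adjusted p = 9.76e-04) and 6 were not called. Of 7 genes of group 2 innate lymphoid cells, Areg, the growth factor amphiregulin that many cell types make, was higher (3.06, adjusted p = 1.04e-05), and Icos (-1.48, adjusted p = 0.0170) and Il7r (-0.67, adjusted p = 0.0431) were lower, Il7r losing its call in 10 of 13 fits with 1 library left out (adjusted p up to 0.117, without normoxia replicate 7). Of 11 lung tissue genes, Acta2 of smooth muscle was higher (0.77, adjusted p = 0.00485) and 3 were lower, among them Sftpa1, a surfactant protein (-1.69, adjusted p = 3.46e-05), and Scgb1a1 of club cells (-2.96, adjusted p = 0.00188). Within the B to M libraries Icos (-2.19, adjusted p = 0.0781), Acta2 (0.75, adjusted p = 0.118) and Scgb1a1 (-3.30, adjusted p = 0.0509) lost the call. Icos also lost it within O to S (-0.95, adjusted p = 0.145).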
